A study of Mus musculus with 8 samples.

Results

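The H3K9 methylation and HP1 genes described here are 10 genes chosen by function, not by a threshold on their values. They are the methyltransferase genes Setdb1, Ehmt1, Ehmt2, Suv39h1 and Suv39h2, the cofactor genes Trim28 and Atf7ip, and the HP1 genes Cbx1, Cbx3 and Cbx5. All 10 were found among the 23343 gene symbols of the deposited tables, and all 10 passed the filter on low counts that left 14907 genes for testing. RNA-seq was done on Thy1+ and cKit+ spermatogonia, the germ cells of the testis from which sperm arise, from C57BL/6 mice at postnatal day 7. Thy1 sorting enriches undifferentiated spermatogonia, and Kit is a receptor of spermatogonia that have begun to differentiate. The genotypes were labelled PRC1dKO (dKO) and PRC1ctrl (control), PRC1 being Polycomb repressive complex 1, which ubiquitinates histone H2A. The 4 groups were cKit dKO, cKit control, Thy1 dKO and Thy1 control, with 2 libraries each. The labels do not name the deleted genes, the driver of the deletion or the control genotype, and do not say whether replicates came from different animals. If they did not, the p-values measure only the spread between these samples, which may be technical.

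Methylation of histone H3 at lysine 9 marks silent chromatin. SETDB1 acts with its partner ATF7IP and is brought to retroelements by TRIM28, the corepressor of KRAB zinc finger proteins, EHMT2 (G9a) and EHMT1 (GLP) form a heterodimer that places the lower methylation states, and SUV39H1 and SUV39H2 trimethylate pericentromeric heterochromatin. The HP1 proteins CBX5 (HP1 alpha), CBX1 (HP1 beta) and CBX3 (HP1 gamma) bind the methylated lysine through their chromodomains, and in mouse Suv39h2 is known for its expression in testis.

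The promoters of 3 members are printed because the results below turn on them: Suv39h2 had the greatest change of the 10 in dKO cells, Ehmt2 was the member called in both dKO comparisons, and Cbx5 separated the populations most. Each sequence is the 250 bases before the RefSeq transcription start on the gene's strand, in build GRCm38.p6. The windows are chr2:3474987-3475236 (minus strand) for Suv39h2, chr17:34898224-34898473 (plus strand) for Ehmt2 and chr15:103239853-103240102 (minus strand) for Cbx5. Capitals mark the GC box letters GGGCGG and the E-box letters CACGTG, searched on both strands.
Suv39h2: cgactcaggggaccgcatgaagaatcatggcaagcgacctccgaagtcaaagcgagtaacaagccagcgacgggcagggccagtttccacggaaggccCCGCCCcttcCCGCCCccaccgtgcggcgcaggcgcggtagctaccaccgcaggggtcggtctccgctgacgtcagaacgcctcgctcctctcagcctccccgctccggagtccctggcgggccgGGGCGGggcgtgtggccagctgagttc
Ehmt2: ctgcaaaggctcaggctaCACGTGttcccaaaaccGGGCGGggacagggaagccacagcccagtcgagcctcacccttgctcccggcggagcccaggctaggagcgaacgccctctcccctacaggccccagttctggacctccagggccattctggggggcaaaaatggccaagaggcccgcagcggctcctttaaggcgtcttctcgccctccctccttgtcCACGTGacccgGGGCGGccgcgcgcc
Cbx5: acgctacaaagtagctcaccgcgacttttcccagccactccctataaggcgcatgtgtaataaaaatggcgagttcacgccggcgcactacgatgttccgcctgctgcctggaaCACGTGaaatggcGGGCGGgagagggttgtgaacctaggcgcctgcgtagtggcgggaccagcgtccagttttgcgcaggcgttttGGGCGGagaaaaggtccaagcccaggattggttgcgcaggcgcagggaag

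The Suv39h2 window held 3 GC box matches, 0 E-box matches and 27 CpG dinucleotides. The printed Ehmt2 window held 2 GC box and 2 E-box matches with 18 CpG. The printed Cbx5 window held 2 GC box matches and 1 E-box match with 22 CpG. The other Ehmt2 window, not printed, held 4 GC box matches and 1 E-box match with 36 CpG. The other Cbx5 window held 1 GC box match and 0 E-box matches with 7 CpG. Among 32851 RefSeq promoter windows of 250 bases, 32.7% held a GC box match and 6.02% an E-box match, and the median CpG count was 6. The 14 windows annotated for the 10 genes held 7 to 36 CpG. The letters TTTCCCGC, TTTCGCGC, TTTGCCGC or TTTGGCGC, which include E2F sites, were present in 1.86% of all windows, and among the members in 1 window of Suv39h1 and 1 of Cbx3. These matches describe the letters of the windows and are not evidence of binding.

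Library totals ran from 6763908 to 10976869 counts, of which the 10 genes took 6602 to 14737. Of the catalytic PRC1 subunit genes, Rnf2 had 134 and 141 CPM (counts relative to the library's TMM-scaled total) in cKit dKO, 146 and 125 in cKit control, 128 and 126 in Thy1 dKO and 103 and 120 in Thy1 control, and Ring1 had 2.59 to 12 CPM over the 8 libraries. Neither passed the test in a dKO comparison, so whole-gene counts do not check the genotype labels. The summed level of 16 core germ cell markers was 665 to 948 CPM in cKit dKO, 2167 to 2762 in cKit control, 2569 to 2893 in Thy1 dKO and 3148 to 3394 in Thy1 control. The sum of 7 Leydig cell markers was 15407 to 18018 CPM in cKit dKO, 11041 to 13257 in cKit control, 3750 to 4191 in Thy1 dKO and 2549 to 3169 in Thy1 control, and Leydig cell markers were thus detected in every library. Kit had 938 to 1058 CPM in cKit libraries and 281 to 317 in Thy1 libraries, while the Thy1 gene had 0 to 1.28 CPM in cKit libraries and 12.8 to 26 CPM in Thy1 libraries. Of 7 markers of differentiating spermatogonia, Kit among them, 3 were higher and 0 lower in cKit control against Thy1 control (median log2 change 0.36). In cKit dKO against Thy1 dKO, 1 was higher and 4 were lower (median -0.91). Of 11 markers of undifferentiated spermatogonia, 10 and 8 were lower in these comparisons and 0 were higher.

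In cKit dKO cells, 6 of the 10 genes were lower than in cKit control, 0 were higher and 4 did not pass the test (edgeR's quasi-likelihood test, Benjamini-Hochberg adjusted p under 0.05), but scaled on core germ cell genes 9 of the 10 were higher, as were 82% of all genes. Of all genes tested, 28.6% were called in this comparison, 15.4% as lower and 13.2% as higher. The median log2 fold change of the 10 genes was -0.42, against 0.03 for all genes. The CPM values of the groups did not overlap in 9 of the 10 genes, against 60.7% of all genes tested. The 4 methyltransferase genes Suv39h2, Suv39h1, Ehmt2 and Setdb1 were lower, with Trim28 and Cbx3 lower by less or closer to the threshold. In bulk RNA, fewer cells of a type and less RNA per cell cannot be told apart.

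**Figure D1:**
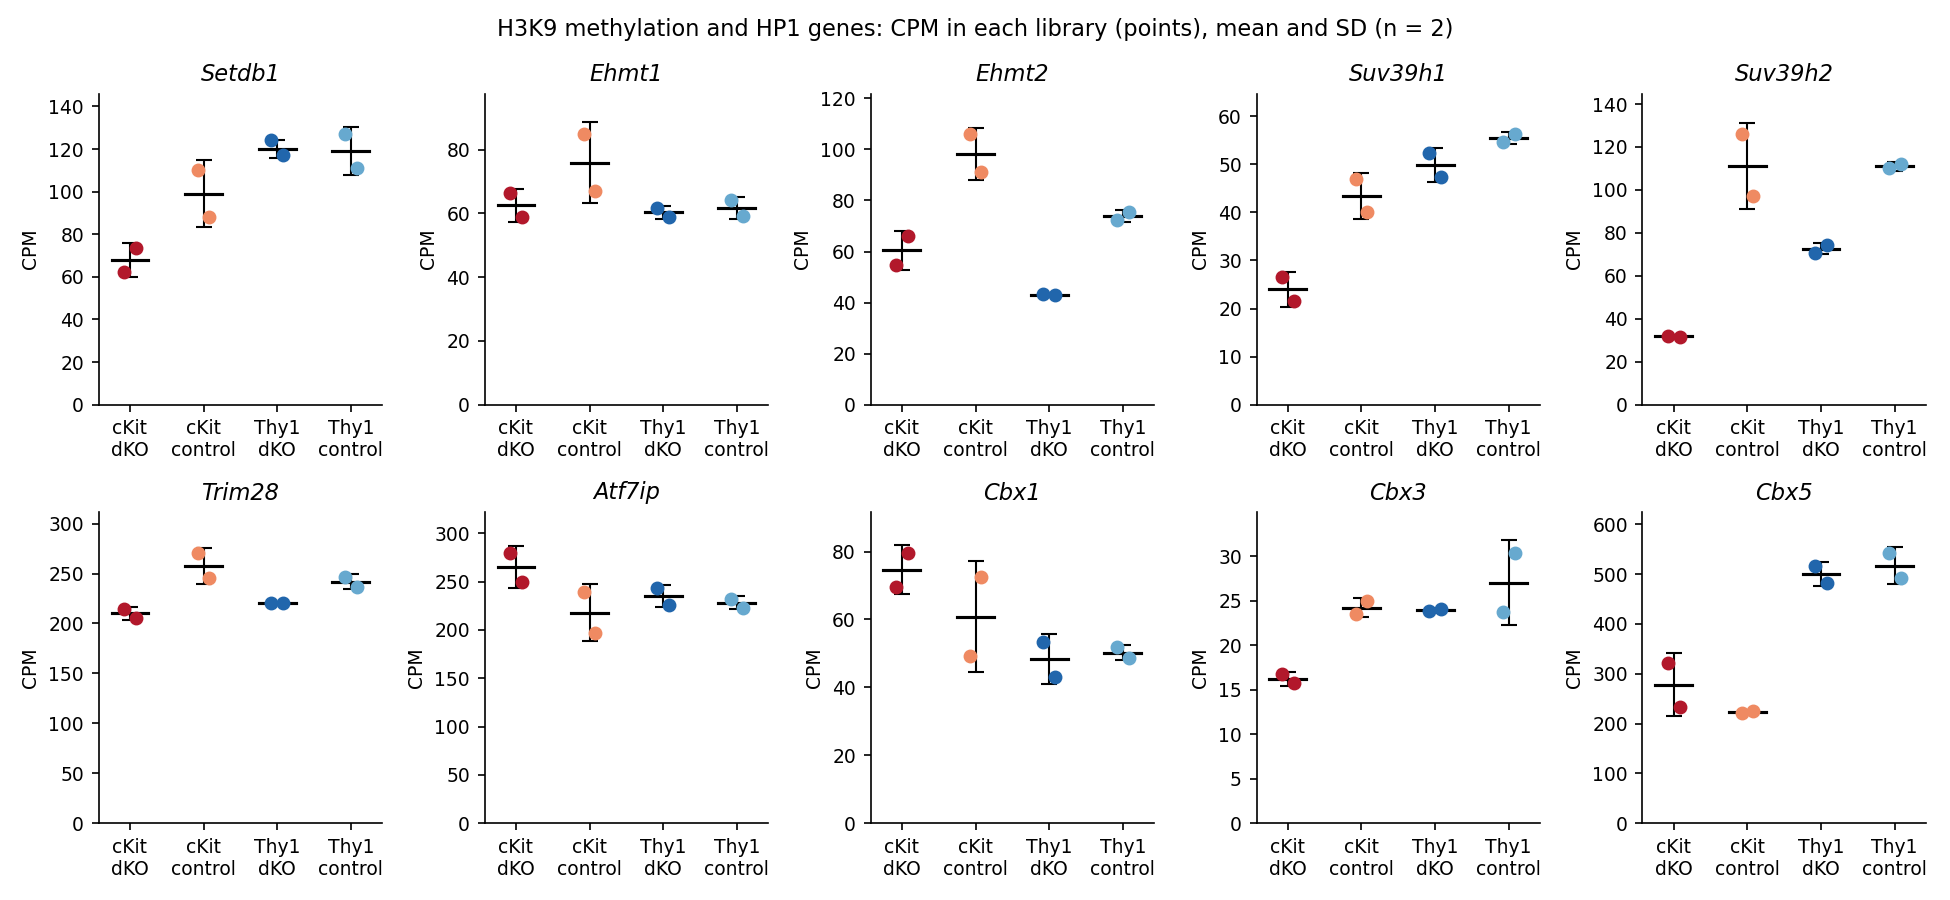
TMM-scaled CPM (y axis, from 0) of each of the 10 genes in the 4 groups; points are the 2 libraries of a group, the horizontal line is their mean and the bar their SD. Both cKit dKO libraries of Suv39h2 (32.2 and 31.4 CPM) lie below every other library, and both cKit groups of Cbx5 lie below both Thy1 groups.

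Suv39h2 had 32.2 and 31.4 CPM in the cKit dKO libraries, against 126 and 97.1 CPM in the cKit control libraries. The groups did not overlap, and both dKO libraries were far below both controls. The mean was 31.8 ± 0.573 CPM in cKit dKO and 111 ± 20.1 CPM in cKit control (SD, n = 2 each), a log2 fold change of -1.81 ± 0.15 (SE, edgeR's adjusted p = 2.9e-06), or 3.51-fold lower. The call held without each library in turn, with log2 fold changes from -1.94 to -1.61. Per 1000 counts of the core germ cell markers, Suv39h2 had 48.4 and 33.1 counts in cKit dKO and 45.5 and 44.8 in cKit control, groups that overlapped. Scaled on those markers, its log2 fold change was -0.15 (edgeR's adjusted p = 0.62).

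Suv39h1, the paralogue with the same substrate, had 26.6 and 21.5 CPM in cKit dKO, against 46.9 and 40.1 CPM in cKit control. Its libraries also separated without overlap, with the dKO pair lower. The log2 fold change was -0.86 ± 0.17 (edgeR's adjusted p = 0.0016), and 0.81 when scaled on core germ cell genes.

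Ehmt2 had 54.9 and 65.9 CPM in cKit dKO, against 106 and 91.1 CPM in cKit control. The dKO libraries were both lower, with a log2 fold change of -0.70 ± 0.14 (edgeR's adjusted p = 0.0017) and of 0.92 on germ cell scaling. The deposited tables split Ehmt2 over a transcript starting at position 34898499 and one starting at 34898974. The first took 72.3% and 0% of the Ehmt2 counts in cKit dKO, 30.1% and 21.1% in cKit control, 60.5% and 52.4% in Thy1 dKO and 21.7% and 54.7% in Thy1 control, so the split varied within groups. With only the fuller transcript in place of the sum, the Ehmt2 call was lost in cKit dKO (log2 fold change -0.85, edgeR's adjusted p = 0.26) and in Thy1 dKO (-1.27, adjusted p = 0.36).

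Setdb1 had 62.1 and 73.7 CPM in cKit dKO, against 110 and 88 CPM in cKit control. The dKO libraries were both lower, with a log2 fold change of -0.55 ± 0.14 (edgeR's adjusted p = 0.01) and of 1.09 on germ cell scaling. The call was lost without cKit control replicate 1 and without cKit dKO replicate 1, and log2 fold changes with 1 library left out ranged from -0.65 to -0.38. Ehmt1, the partner of Ehmt2, had 66.3 and 59 CPM in cKit dKO and 84.9 and 66.9 CPM in cKit control. Its groups stood next to each other without overlap, and the log2 fold change of -0.28 ± 0.15 did not pass the test (edgeR's adjusted p = 0.17).

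Among the cofactors, Trim28 had 214 and 205 CPM in cKit dKO, against 271 and 246 CPM in cKit control. Its log2 fold change of -0.30 ± 0.11 was just past the threshold (edgeR's adjusted p = 0.046), and the call was lost without any one of the 8 libraries. On germ cell scaling it was 1.35. Atf7ip, whose protein stabilises SETDB1, had 280 and 250 CPM in cKit dKO and 239 and 197 CPM in cKit control. Both dKO libraries were above both controls, and the log2 fold change of 0.28 ± 0.12 did not pass the test (edgeR's adjusted p = 0.094). It passed as higher with DESeq2 (0.33, adjusted p = 0.042) and on germ cell scaling. Without cKit control replicate 1 the log2 fold change was 0.42, and without cKit dKO replicate 2 it was 0.39. Limma on log2(RPKM + 1) and on log2(RPKM + 0.1), made without TMM scaling, gave -0.06 on both scales. The medians of all genes there were -0.16 and -0.29.

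Of the HP1 genes, Cbx3 had 16.8 and 15.7 CPM in cKit dKO, against 23.5 and 25 CPM in cKit control. The dKO pair was lower without overlap, with a log2 fold change of -0.58 ± 0.21 (edgeR's adjusted p = 0.049) that was lost without any one library and that was 1.06 on germ cell scaling. The annotation names 8 Cbx3 pseudogenes, which could share reads with it, so its counts are uncertain. Cbx5 had 322 and 234 CPM in cKit dKO and 221 and 226 CPM in cKit control, with a log2 fold change of 0.32 ± 0.13 (edgeR's adjusted p = 0.089). Both dKO libraries were higher, one of them far above the other. Cbx5 passed as higher with DESeq2 (0.37, adjusted p = 0.033), with RLE factors (0.36, edgeR's adjusted p = 0.048), without the filter on low counts (0.31, adjusted p = 0.037), without cKit dKO replicate 2 (0.56, adjusted p = 0.0026) and on germ cell scaling, while limma gave -0.05 and -0.04. Its counts are the sum of 2 transcripts, of which the shorter took 12.4% and 5.17% in cKit dKO, 0% and 8.43% in cKit control, 7.13% and 13.5% in Thy1 dKO and 21.3% and 3.8% in Thy1 control. Cbx1 had 69.6 and 79.7 CPM in cKit dKO and 49.3 and 72.4 CPM in cKit control, groups that overlapped, with a log2 fold change of 0.30 ± 0.18 (edgeR's adjusted p = 0.22).

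Other gene groups moved in the same libraries. Of 16 core germ cell markers, 13 were lower in cKit dKO (median log2 fold change -1.66), as were 11 of 13 S phase genes (median -1.01) and 9 of 9 G2 and M phase genes (median -1.02). Of 7 markers of differentiating spermatogonia, 5 were lower and 0 higher (median -1.63). Of 11 markers of undifferentiated spermatogonia, 3 were lower and 1 higher (median -0.21). S phase genes summed to 546 and 628 CPM in cKit dKO and 1217 and 1028 CPM in cKit control, and G2 and M phase genes to 930 and 1107 CPM in cKit dKO and 2219 and 1881 CPM in cKit control. Markers of Sertoli cells (4 higher, 0 lower of 10 tested; summed level 1241 to 1302 CPM in cKit dKO and 840 to 903 CPM in cKit control), Leydig cells (5 higher, 1 lower of 7), peritubular and stromal cells (5 higher, 0 lower of 9; 3241 to 4138 CPM in cKit dKO and 1910 to 1988 CPM in cKit control) and endothelial cells (3 higher, 0 lower of 6; 389 to 401 CPM in cKit dKO and 191 to 200 CPM in cKit control) moved the other way. Of 4 tested mast cell markers, 2 were higher and 0 lower, and of 7 macrophage markers 0 were called. The part of these groups in the changes of the 10 genes was not tested.

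**Figure D2:**
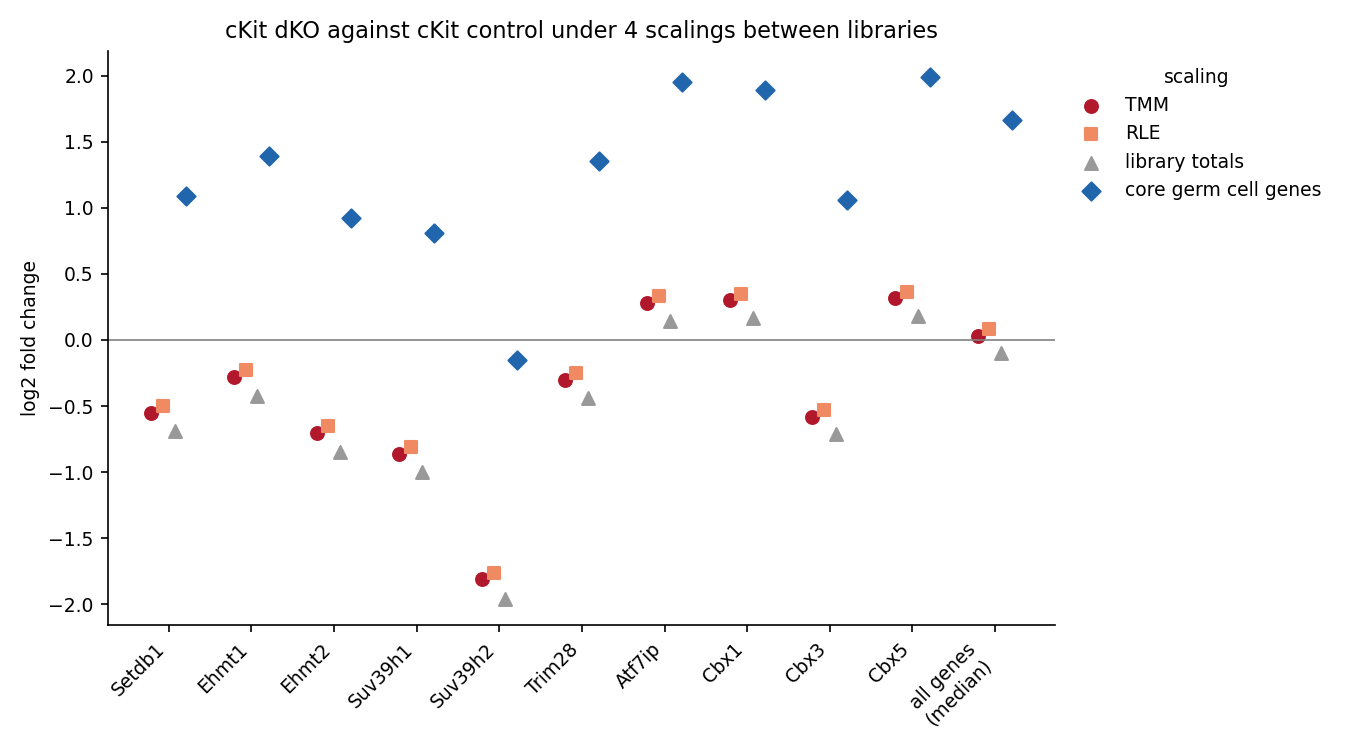
Log2 fold change of the 10 genes and the median of all genes in cKit dKO against cKit control under 4 ways of scaling libraries to each other. The first 3 scalings give close values, while scaling on core germ cell genes moves all 10 up and the median of all genes to 1.66; Suv39h2 is at -1.81 under TMM and at -0.15 there.

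Scaling on core germ cell genes moved the median of all genes to 1.66 in this comparison. On that scale Suv39h2, with a log2 fold change of -0.15, was the lowest of the 10 and below that median. It was followed by Suv39h1 at 0.81 and Ehmt2 at 0.92, also below the median. Cbx3 at 1.06, Setdb1 at 1.09, Trim28 at 1.35 and Ehmt1 at 1.39 were below it too. Cbx5 at 1.99, Atf7ip at 1.95 and Cbx1 at 1.89 were above the median. The sign of 5 of the 6 called changes turned with this scaling, and Suv39h2 lost its call. In the other comparisons germ cell scaling moved the median of all genes to 0.29 in Thy1 dKO, to 0.43 in cKit control against Thy1 control and to 1.35 in the difference between the dKO effects, where 60.9% of all genes were higher.

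In Thy1 dKO cells, 1 of the 10 genes was lower than in Thy1 control and 0 were higher, against 0.624% of all genes called (0.262% as lower, 0.362% as higher). The median log2 fold change of the 10 was -0.09, against 0.03 for all genes. The CPM values of the groups did not overlap in 4 of the 10 genes, against 51.3% of all genes tested. At an unadjusted p under 0.05, 2 of the 10 were lower, against 13.8% of all genes past it (6.25% as lower). DESeq2 called 2 of the 10, against 2.21% of all genes.

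Ehmt2 was the gene called, at 43.4 and 42.9 CPM in Thy1 dKO, against 72.2 and 75.6 CPM in Thy1 control. The dKO pair was lower and the libraries of each group lay close together. The log2 fold change was -0.78 ± 0.14 (edgeR's adjusted p = 0.027), or 1.71-fold lower, and -0.51 on germ cell scaling (adjusted p = 0.49). The call was lost without any one of the 4 Thy1 libraries, with log2 fold changes from -0.82 to -0.74 over all left-out libraries.

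Suv39h2 had 70.7 and 74.5 CPM in Thy1 dKO, against 110 and 112 CPM in Thy1 control. Both dKO libraries were lower without overlap, and the log2 fold change of -0.61 ± 0.14 stayed just short of the threshold (edgeR's adjusted p = 0.057). It passed under 7 of 18 other settings, among them DESeq2 and a fit of the 4 Thy1 libraries alone, and on germ cell scaling it was -0.35 (edgeR's adjusted p = 0.63).

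The other 8 genes had log2 fold changes from -0.18 (Cbx3) to 0.04 (Atf7ip) in Thy1 dKO, none past the test. Suv39h1 had 52.4 and 47.4 CPM in Thy1 dKO and 54.6 and 56.3 CPM in Thy1 control, with a log2 fold change of -0.15 ± 0.16 (edgeR's adjusted p = 0.73). Setdb1 had 124 and 117 CPM in Thy1 dKO and 127 and 111 CPM in Thy1 control, groups that overlapped. Cbx5 had 517 and 482 CPM in Thy1 dKO and 543 and 491 CPM in Thy1 control, which also overlapped.

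Trim28 had 221 and 221 CPM in Thy1 dKO and 247 and 237 CPM in Thy1 control, with both dKO libraries below both controls and a log2 fold change of -0.13 ± 0.11 (edgeR's adjusted p = 0.63). Ehmt1 had 61.7 and 58.9 CPM in Thy1 dKO and 64.2 and 59.2 CPM in Thy1 control, and Atf7ip 243 and 226 CPM in Thy1 dKO and 232 and 223 CPM in Thy1 control. Both genes overlapped between the genotypes. The HP1 genes Cbx1 (53.5 and 43.2 CPM in Thy1 dKO, 51.8 and 48.6 CPM in Thy1 control) and Cbx3 (23.8 and 24.1 CPM in Thy1 dKO, 23.7 and 30.4 CPM in Thy1 control) overlapped as well.

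**Figure D3:**
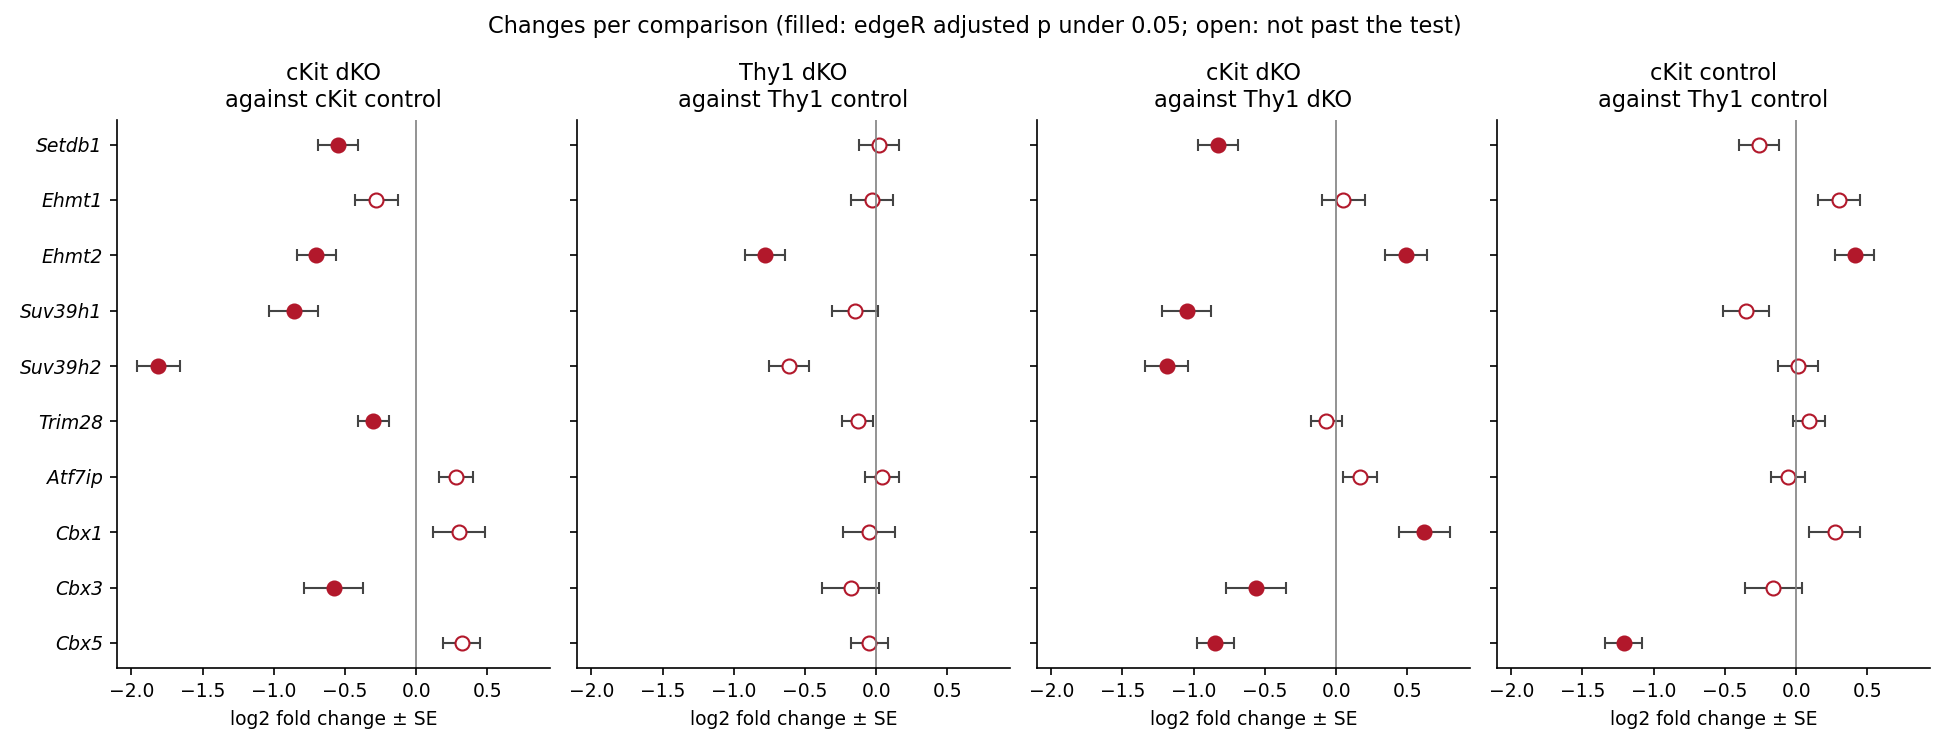
Log2 fold change (x axis) with its SE of each of the 10 genes in 4 comparisons of the TMM-scaled counts; filled points have an edgeR adjusted p under 0.05. Ehmt2 is filled at -0.70 in cKit dKO and at -0.78 in Thy1 dKO, while Suv39h2 is at -1.81 and at -0.61.

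The difference between the dKO effects, cKit minus Thy1, was tested as an interaction. It was called for 1 of the 10 genes, against 5.92% of all genes called (4.06% as lower, 1.86% as higher). For Suv39h2 the difference was -1.20 ± 0.20 on the log2 scale (edgeR's adjusted p = 0.0035), and the call held without each library in turn, with differences from -1.28 to -1.0, but the sign turned to 0.19 on germ cell scaling. Suv39h1 had a difference of -0.71 ± 0.23 (edgeR's adjusted p = 0.091) and Setdb1 of -0.57 ± 0.20 (adjusted p = 0.11), which did not pass. For Ehmt2 the difference was 0.07 ± 0.20 (edgeR's adjusted p = 0.89), which does not show that the effects were equal.

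Between the populations, cKit control was set against Thy1 control. Of the 10 genes, 2 were called (1 higher, 1 lower), against 19.7% of all genes (9.46% higher, 10.3% lower). The CPM values of the groups did not overlap in 5 of the 10 genes, against 59.7% of all genes tested. Cbx5, the HP1 alpha gene, had 221 and 226 CPM in cKit control, against 543 and 491 CPM in Thy1 control. The cKit libraries were both far lower, with a log2 fold change of -1.21 ± 0.13 (edgeR's adjusted p = 9.6e-06), or 2.32-fold lower. This call held in all 18 other settings, with a log2 fold change of -1.07 (edgeR's adjusted p = 0.00069) for the fuller of its 2 transcripts alone. On germ cell scaling the log2 fold change was -0.79, just past the threshold (edgeR's adjusted p = 0.049). Ehmt2 had 106 and 91.1 CPM in cKit control, against 72.2 and 75.6 CPM in Thy1 control, and its log2 fold change of 0.41 ± 0.14 (edgeR's adjusted p = 0.046) was lost in 11 of 18 other settings, among them every fit without a control library and without a Thy1 dKO library. Suv39h2 had 126 and 97.1 CPM in cKit control and 110 and 112 CPM in Thy1 control, groups that overlapped. The other 7 genes had log2 fold changes from -0.35 (Suv39h1) to 0.30 (Ehmt1), none past the test.

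The same populations differed in markers of other cells. In cKit control against Thy1 control, 9 of 9 peritubular and stromal markers were lower (1910 to 1988 CPM in cKit control and 7128 to 9813 CPM in Thy1 control in sum), 6 of 7 macrophage markers were lower, 7 of 7 Leydig cell markers were higher and 4 of 4 tested mast cell markers were higher. Their part in the Cbx5 difference was not tested.

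In cKit dKO against Thy1 dKO, 2 of the 10 genes were higher and 5 lower, against 34.8% of all genes called (14.8% higher, 20% lower), but all 10 were higher on germ cell scaling, where 80% of all genes were higher and their median was 1.72. This comparison shares its libraries with both dKO comparisons above and is not independent of them. Suv39h2 had a log2 fold change of -1.19 ± 0.15 (edgeR's adjusted p = 2.7e-05), Suv39h1 of -1.05 ± 0.17 (adjusted p = 0.00023), Cbx5 of -0.85 ± 0.13 (adjusted p = 0.0002), Setdb1 of -0.83 ± 0.14 (adjusted p = 0.00044) and Cbx3 of -0.56 ± 0.21 (adjusted p = 0.049; lost without any one library). Cbx1 was higher by 0.62 ± 0.18 (edgeR's adjusted p = 0.015; lost without Thy1 dKO replicate 2) and Ehmt2 by 0.49 ± 0.15 (adjusted p = 0.017). The Ehmt2 call was lost in 7 of 18 other settings, among them the fits without Thy1 dKO replicate 1, without Thy1 dKO replicate 2 and without cKit dKO replicate 2. Without Thy1 dKO replicate 2, fewer of the 10 were called, and fewer of all genes as well.

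The deposited RPKM values, reads per kilobase of transcript relative to the reads of the library, allow levels of different genes to be compared. In cKit dKO the order of mean RPKM was Trim28 (17.1), Cbx1 (15.6), Atf7ip (15.5), Cbx5 (8.33), Ehmt2 (4.09), Setdb1 (3.92), Ehmt1 (3.27), Cbx3 (2.38), Suv39h1 (2.04) and Suv39h2 (2.02). Of these neighbours, Trim28 and Cbx1, Cbx1 and Atf7ip, Ehmt2 and Setdb1, and Suv39h1 and Suv39h2 overlapped. In cKit control it ran Trim28 (26.9), Atf7ip (16.3), Cbx1 (15.9), Suv39h2 (9.04), Cbx5 (8.53), Ehmt2 (8.42), Setdb1 (7.25), Ehmt1 (5.04), Suv39h1 (4.71) and Cbx3 (4.52), where Atf7ip overlapped Cbx1, the genes from Suv39h2 to Setdb1 each overlapped the next, and so did those from Ehmt1 to Cbx3. Suv39h2 was thus the last of the 10 in cKit dKO and the fourth in cKit control.

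In Thy1 dKO the order was Trim28 (19.2), Cbx5 (16), Atf7ip (14.6), Cbx1 (10.7), Setdb1 (7.34), Suv39h2 (4.91), Suv39h1 (4.5), Cbx3 (3.73), Ehmt1 (3.33) and Ehmt2 (3.15), with no neighbours overlapping. In Thy1 control it was Trim28 (21.4), Cbx5 (16.8), Atf7ip (14.4), Cbx1 (11.3), Suv39h2 (7.62), Setdb1 (7.38), Ehmt2 (5.4), Suv39h1 (5.08), Cbx3 (4.26) and Ehmt1 (3.47), with overlap of Cbx5 with Atf7ip and of Suv39h2 with Setdb1. Trim28 was first in all 4 groups.

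Ratios within a library do not depend on the scaling between libraries. The ratio of Suv39h2 to Suv39h1 RPKM was 0.907 and 1.1 in cKit dKO, 2.01 and 1.8 in cKit control, 1.01 and 1.18 in Thy1 dKO and 1.5 and 1.5 in Thy1 control. Within each population, both dKO libraries were lower than both controls. The ratio of Ehmt2 to Ehmt1 was 1.1 and 1.41 in cKit dKO, 1.61 and 1.75 in cKit control, 0.931 and 0.959 in Thy1 dKO and 1.45 and 1.68 in Thy1 control, again lower in the dKO pair of each population. The ratio of Atf7ip to Setdb1 was 4.58 and 3.44 in cKit dKO and 2.21 and 2.28 in cKit control, and 2.01 and 1.97 in Thy1 dKO and 1.87 and 2.05 in Thy1 control, so it was higher in the cKit dKO pair and overlapped in Thy1. With 2 libraries against 2 the smallest two-sided p of an exact permutation test is 0.333, so no test was made.

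Of the summed methyltransferase RPKM, Suv39h2 took 13.5% and 12.9% in cKit dKO, 26.9% and 25.4% in cKit control, 20.2% and 22.1% in Thy1 dKO and 25.7% and 27% in Thy1 control. The share in the dKO pair was lower than in the controls in both populations. Ehmt1 took 22.8% and 19.9% in cKit dKO and 14.8% and 14.4% in cKit control, and Ehmt2 13.4% and 13.7% in Thy1 dKO and 17.9% and 19.5% in Thy1 control. Of the summed HP1 RPKM, Cbx5 took 36.4% and 27.1% in cKit dKO, 32.7% and 26.6% in cKit control, 51.6% and 53.7% in Thy1 dKO and 53.4% and 50.4% in Thy1 control. Its share separated the populations and overlapped between the genotypes. Cbx3 took 9.26% and 8.9% in cKit dKO and 17% and 14.4% in cKit control, the lower share in both dKO libraries.

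**Figure D4:**
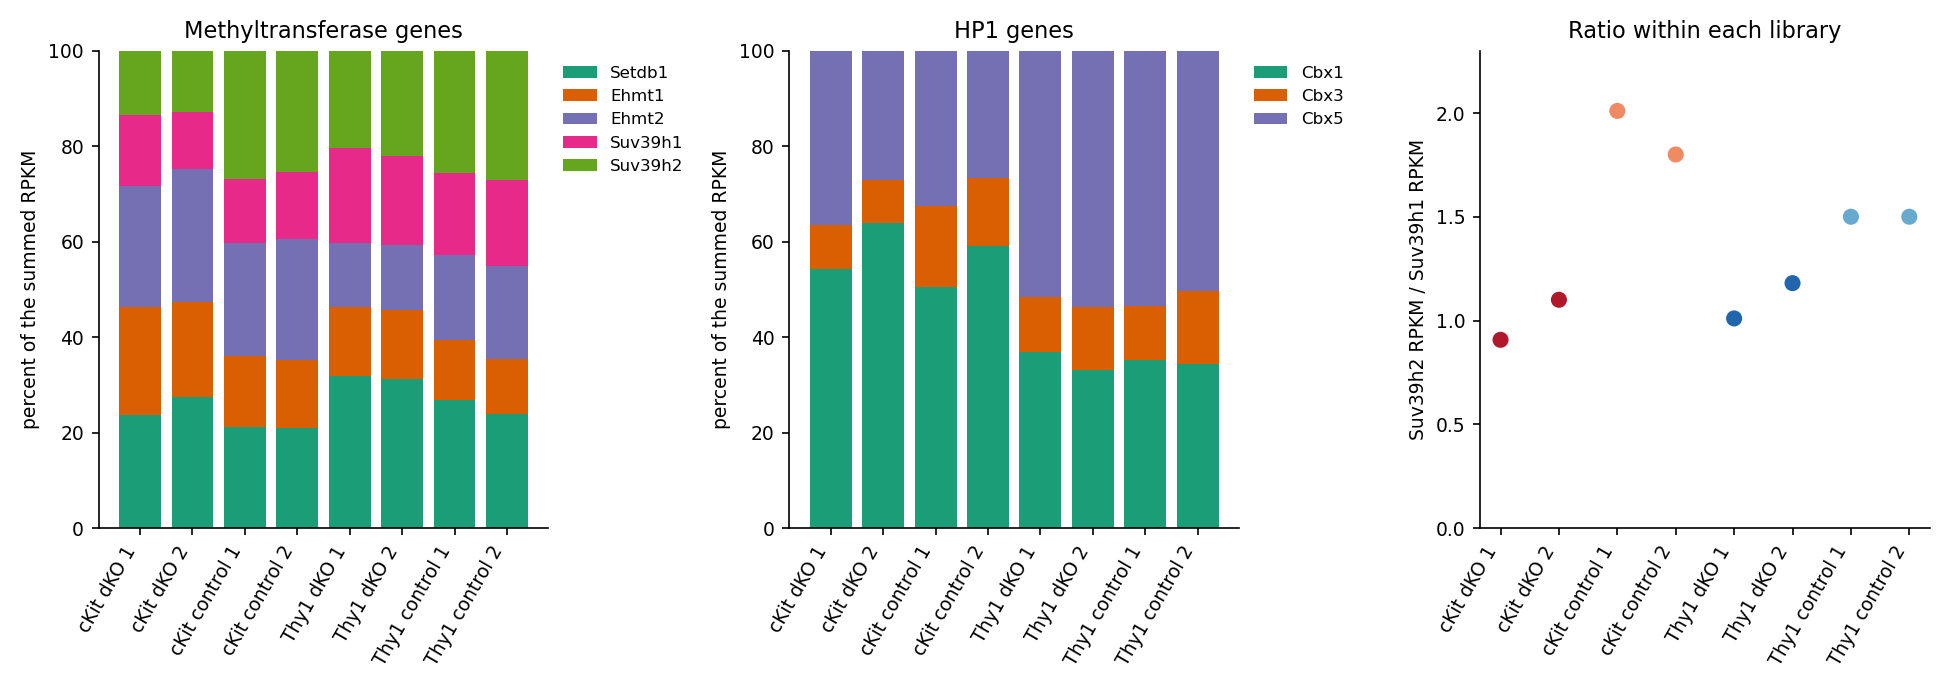
Share of each gene in the summed RPKM of the 5 methyltransferase genes (left) and of the 3 HP1 genes (middle), in percent, and the ratio of Suv39h2 to Suv39h1 RPKM (right), in each of the 8 libraries. The Suv39h2 share is 13.5% and 12.9% in cKit dKO and 26.9% and 25.4% in cKit control, and the Cbx5 share is 51.6% and 53.7% in Thy1 dKO and 53.4% and 50.4% in Thy1 control.

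Profiles over the 8 libraries were compared by the root mean square difference of log2 CPM values centred on each gene's mean, among 8145 genes with a mean log2 CPM of at least 4. The nearest genes were Rbm7 for Setdb1 (0.0695), Prkci for Ehmt1 (0.0455), Phf15 for Ehmt2 (0.117), Fnbp1l for Suv39h1 (0.0809), Cep85 for Suv39h2 (0.133), March8 for Trim28 (0.0376), Zscan26 for Atf7ip (0.0454), Hcfc1r1 for Cbx1 (0.0609), Eif4ebp1 for Cbx3 (0.0557) and D430019H16Rik for Cbx5 (0.109). Among the 10 genes themselves, Ehmt1 and Trim28 lay closest to each other (0.108), with 57 genes nearer to Ehmt1 and 204 nearer to Trim28. Setdb1 and Suv39h1 lay at 0.213, with 567 genes nearer to Setdb1 and 284 nearer to Suv39h1. Suv39h2 was nearest to Suv39h1 among the members (0.384), with 440 genes nearer.

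Other genes of the pathway were taken from 4 lists with 44 tested genes. In cKit dKO, 2 of the 44 were higher and 14 lower (median log2 fold change -0.17), against 13.2% of all genes higher and 15.4% lower. But on germ cell scaling 39 were higher and 0 lower, beside the 82% of all genes higher there. Of 14 partners of the methyltransferases and further SET or PR domain genes, listed together, 4 were lower and 0 higher (median -0.17). Setdb2, a further SET domain gene of the Setdb1 family, had 12.8 and 9.72 CPM in cKit dKO, against 39.5 and 29.2 CPM in cKit control. Its dKO pair was lower, with a log2 fold change of -1.61 ± 0.23 (edgeR's adjusted p = 0.00014) and of 0.07 on germ cell scaling. Prdm16, a PR domain gene, was lower, with a log2 change of -2.19 ± 0.42 (edgeR's adjusted p = 0.0012; -0.46 on germ cell scaling), at 5.6 and 1.57 CPM in cKit dKO and 18 and 14.5 CPM in cKit control. Atf7ip2, the paralogue of Atf7ip, was lower, with a log2 change of -1.36 ± 0.34 (edgeR's adjusted p = 0.0075; 0.20 on germ cell scaling), and this call was lost without cKit dKO replicate 1. Cdyl, whose chromodomain binds methylated H3K9, was lower, with a log2 change of -0.71 ± 0.19 (edgeR's adjusted p = 0.013; 0.99 on germ cell scaling), and lost the call without cKit control replicate 1 and without cKit dKO replicate 2.

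Of 15 readers of the mark and partners of HP1, 8 were lower and 1 higher in cKit dKO (median -0.58). Uhrf1, which reads H3K9 methylation and hemimethylated DNA, had 43.2 and 44.9 CPM in cKit dKO, against 104 and 80.9 CPM in cKit control. The dKO pair was lower, with a log2 fold change of -1.07 ± 0.15 (edgeR's adjusted p = 0.00011) and of 0.58 on germ cell scaling, and the call was lost with the fuller transcript in place of the sum. Mphosph8, a subunit of the HUSH silencing complex, was lower, with a log2 change of -1.01 ± 0.13 (edgeR's adjusted p = 6.3e-05; 0.63 on germ cell scaling). So were Smchd1, known for silencing of the inactive X chromosome, at -0.98 ± 0.14 (adjusted p = 0.00012; 0.70 on germ cell scaling) and Lbr, the lamin B receptor that binds HP1, at -0.90 ± 0.16 (adjusted p = 0.00078; 0.73 on germ cell scaling). The gene that was higher was Atrx, a chromatin remodeller at heterochromatin, at 640 and 559 CPM in cKit dKO and 396 and 452 CPM in cKit control. Its log2 fold change was 0.50 ± 0.11 (edgeR's adjusted p = 0.0034), and 2.14 on germ cell scaling. The call was lost with limma on both RPKM scales, where the lower value was 0.14 and the medians of all genes were -0.16 and -0.29.

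Of 11 H3K9 demethylase genes, 1 was higher and 1 lower in cKit dKO (median 0.25). Phf2 had 71.1 and 79.7 CPM in cKit dKO, against 43.7 and 51.9 CPM in cKit control, a log2 fold change of 0.66 ± 0.14 (edgeR's adjusted p = 0.0032; 2.27 on germ cell scaling), and this call too was lost with limma on both RPKM scales, where the lower value was 0.24. Kdm1a, which also demethylates H3 lysine 4, had 79.7 and 65.2 CPM in cKit dKO, against 128 and 99.4 CPM in cKit control. Its log2 fold change of -0.65 ± 0.15 (edgeR's adjusted p = 0.0039; 1.03 on germ cell scaling) was lost without cKit control replicate 1. Of the 4 tested Polycomb chromobox genes, relatives of the HP1 genes whose chromodomain proteins belong to PRC1, only Cbx2 was called in cKit dKO. It had 15.2 and 24.9 CPM in cKit dKO, against 70.6 and 73.5 CPM in cKit control, a log2 fold change of -1.84 ± 0.19 (edgeR's adjusted p = 1.1e-05; -0.27 on germ cell scaling).

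In Thy1 dKO, 0 of the 44 genes were called by edgeR's quasi-likelihood test (median -0.06), against 0.624% of all genes. At an unadjusted p under 0.05, 2 were higher and 3 lower, against 7.57% of all genes higher and 6.25% lower, and DESeq2 called 2, against 2.21% of all genes. Cbx2 had 49.3 and 47.2 CPM in Thy1 dKO and 75.6 and 81.9 CPM in Thy1 control, both dKO libraries below both controls, and a log2 fold change of -0.71 ± 0.17 that did not pass (edgeR's adjusted p = 0.071). In cKit control against Thy1 control, 5 were higher and 2 lower (median 0.04), against 9.46% of all genes higher and 10.3% lower. Wiz, a zinc finger partner of the EHMT1 and EHMT2 heterodimer, was higher by 0.80 ± 0.13 (edgeR's adjusted p = 0.00039), at 108 and 107 CPM in cKit control and 58.8 and 64.8 CPM in Thy1 control. Pphln1, a HUSH subunit, was lower, with a log2 change of -0.57 ± 0.12 (edgeR's adjusted p = 0.0022), a call lost on germ cell scaling (-0.15, adjusted p = 0.73) and with limma on both RPKM scales. In cKit dKO against Thy1 dKO, 6 were higher and 14 lower (median -0.05), against 14.8% of all genes higher and 20% lower. But on germ cell scaling 40 were higher and 0 lower, beside 80% of all genes higher there.

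**Figure D5:**
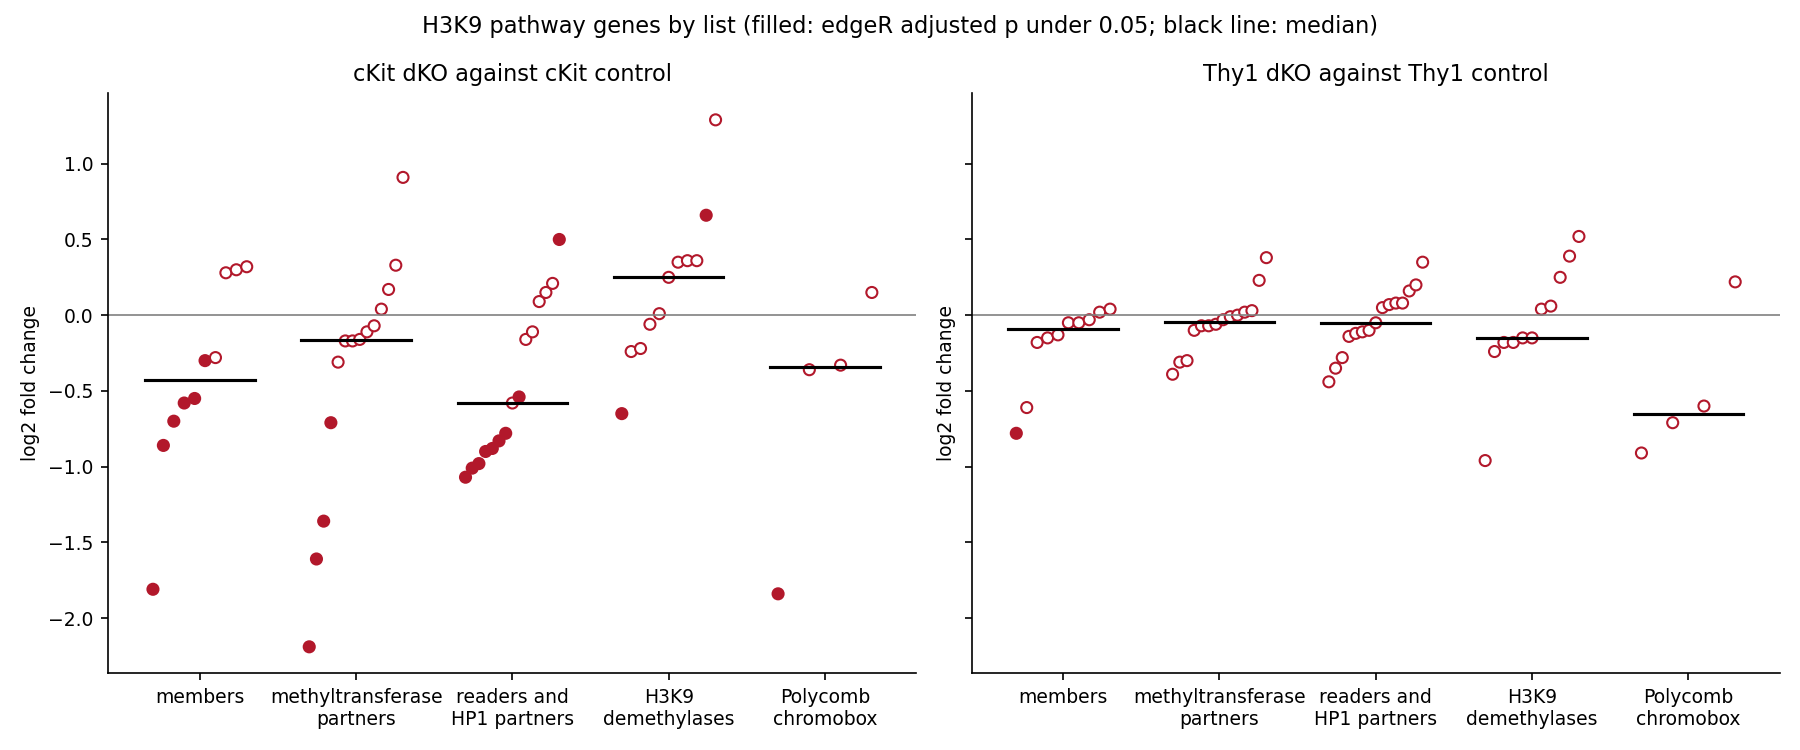
Log2 fold change of every tested gene of the 10 members and the 4 pathway lists in cKit dKO against cKit control (left) and Thy1 dKO against Thy1 control (right), under TMM scaling; filled points have an edgeR adjusted p under 0.05 and black lines are medians. In cKit dKO the readers and HP1 partners have 8 filled points below 0 and 1 above; in Thy1 dKO only Ehmt2 is filled.

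The members lie, on mm10 as the deposited tables give it, at chr3:95323525-95357202 (Setdb1, minus strand), chr2:24790769-24919609 (Ehmt1, minus), chr17:34898499-34914048 (Ehmt2, plus), chrX:8061171-8074760 (Suv39h1, minus), chr2:3455815-3474986 (Suv39h2, minus), chr7:13024152-13031032 (Trim28, plus), chr6:136518851-136607379 (Atf7ip, plus), chr11:96789136-96808640 (Cbx1, plus), chr6:51470616-51483704 (Cbx3, plus) and chr15:103191546-103239816 (Cbx5, minus). In the GENCODE annotation, Suv39h2 overlaps Dclre1c on the other strand over 8316 bases and the antisense gene Gm13184 over 5934 bases. Suv39h1 overlaps the antisense gene Gm14820 over 13449 bases. Without a stated strand setting, reads of such partners cannot be told apart, so the counts of Suv39h2 and Suv39h1 are uncertain to that extent.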

How the data were processed

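Per the labels' protocols, RNeasy micro was used to isolate total RNA, NuGEN Ovation v2 to amplify it, Nextera XT to build the libraries and a HiSeq instrument to read them. STAR 2.4.2a and mm10 are named in the submitters' processing notes. The counting tool and its strand setting are not given in the sources used here. The deposited tables give whole read counts and RPKM values per RefSeq transcript, per the file headers. Counts and RPKM were summed per symbol. Tests used edgeR 4.0.16 in R 4.3.3 on all 8 libraries: filterByExpr by group, TMM scaling, group means with 4 residual degrees of freedom, glmQLFTest (two-sided) and Benjamini-Hochberg adjustment over 14907 genes with a threshold of 0.05. Each SE divides the size of the log2 change by the root of its F statistic. The code was tested on simulated data. Alternatives used limma 3.58.1 on log2(RPKM + 1) and log2(RPKM + 0.1), DESeq2 1.42.0, other scalings, no filter, the fuller transcript, the 4 libraries compared, a replicate block and each library left out.

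The 10 genes and all lists were chosen with earlier results of these data known. Named were all members, up to 4 called genes of largest change per pathway list and comparison, the nearest profile of each member, and Ring1 and Rnf2; Atrx, Cbx2 in Thy1 cells and the markers were named after their values were seen. Tasor and Cbx6 were not matched. Promoters come from RefSeq (GRCm38.p6) and overlaps from GENCODE vM21. No molecular identifiers are named in the labels, so the 6602 to 14737 counts over the members are not independent molecules and bound counting error only.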

Additional observations from a re-analysis of the deposited data

Results flagged for a closer look

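The dKO effect differed between the populations, cKit minus Thy1, by the test of the interaction for Suv39h2, with a log2 difference of -1.20 (edgeR's adjusted p = 0.0035), and for 10 of the 44 other pathway genes, all with a more negative change in cKit. The log2 differences were -2.19 for Prdm16, -1.22 for Setdb2, -1.13 for Cbx2, -0.97 for Uhrf1, -0.95 for Morc3, -0.87 for Mphosph8, -0.86 for Chaf1a, -0.80 for Lbr, -0.70 for Smchd1 and -0.60 for Morc2a. Their edgeR adjusted p ranged from 0.011 for Mphosph8 to 0.047 for Lbr. Of all genes tested, 5.92% were called for this difference, 4.06% as lower and 1.86% as higher. Each of these 10 calls was lost or turned in sign in 5 to 11 of 17 other settings, germ cell scaling included. Scaled on core germ cell genes the difference turned positive for 9 of the 10, from 0.17 for Cbx2 to 0.80 for Morc2a, and stayed at -0.70 for Prdm16. The core germ cell markers differed in the same direction, 11 of 16 with a more negative change in cKit (median -1.33), as did 7 of 9 G2 and M phase genes, and their part was not tested.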

How the results depend on the processing

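Of the members' values under the planned settings, 719 kept their direction and their side of the threshold, 72 lost the call, 30 gained one and 69 turned sign, the last mostly values near 0 or under germ cell scaling. The number of the 10 genes past the test in Thy1 dKO was 1, beside 54 of all 14907 genes higher and 39 lower. It was 0 on germ cell scaling (all genes: 51 higher, 5 lower) and with the fuller transcript (5 and 4 of 14858). It was also 0 with limma on log2(RPKM + 1) (10 and 14) and on log2(RPKM + 0.1) (2 and 4). It was 2 without the filter (326 and 237 of 19719), with DESeq2 (187 and 143) and with the 4 libraries compared (432 and 438 of 14374). It changed with any 1 library left out. In cKit dKO it was 6, all lower, and 9 (all higher) on germ cell scaling and 3 to 6 with 1 library left out, the lowest without cKit dKO replicate 1. There DESeq2 and the fit without cKit dKO replicate 2 each called 2 higher (Atf7ip and Cbx5) and 4 lower, RLE factors and no filter 1 higher (Cbx5) and 4 lower, the fit without cKit control replicate 1 called 1 higher (Atf7ip) and 3 lower, that without cKit control replicate 2 called 1 higher (Cbx1) and 4 lower, limma on either RPKM scale 7 lower, and the 4 libraries compared and the fuller transcript 4 lower each. In cKit control against Thy1 control it was 2, beside 1410 of all genes higher and 1529 lower. It was 1 with RLE factors (all genes: 1376 higher, 1546 lower), library totals (1391 and 1490) and DESeq2 (1342 and 1480). It was also 1 with the fuller transcript (1093 and 1160 of 14858) and the replicate block (1324 and 1490). With 1 library left out it was the same or fewer. In cKit dKO against Thy1 dKO it was 7, beside 2202 of all genes higher and 2988 lower. It was 10 on germ cell scaling (all genes: 11928 higher, 150 lower) and fewer with any 1 library left out. For the difference of the effects it was 1, beside 278 of all genes higher and 605 lower. It was 2 with library totals (all genes: 172 higher, 966 lower). Limma also called 2 on log2(RPKM + 1) (35 and 1013) and on log2(RPKM + 0.1) (41 and 1127). On germ cell scaling it was 6, all higher (9080 and 28). With 1 library left out it was the same or more. Limma was run on RPKM without TMM scaling. In cKit dKO it called 3990 of all 14907 genes lower and 459 higher on log2(RPKM + 1). On log2(RPKM + 0.1) it called 4042 lower and 443 higher. The cause of the differences between settings was not tested.

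Germ cell scaling turned the sign of Setdb1 (1.09), Ehmt1 (1.39), Ehmt2 (0.92), Suv39h1 (0.81), Trim28 (1.35) and Cbx3 (1.06) in cKit dKO. In Thy1 dKO it did so for Ehmt1 (0.23), Suv39h1 (0.11), Trim28 (0.13), Cbx1 (0.20), Cbx3 (0.09) and Cbx5 (0.21). In cKit control against Thy1 control it did so for Setdb1 (0.14), Suv39h1 (0.06), Atf7ip (0.35) and Cbx3 (0.28), and in cKit dKO against Thy1 dKO for Setdb1 (0.95), Suv39h1 (0.77), Suv39h2 (0.60), Trim28 (1.73), Cbx3 (1.24) and Cbx5 (1.0). In the difference of the effects it did so for Setdb1 (0.81), Ehmt1 (1.16), Suv39h1 (0.70), Suv39h2 (0.19), Trim28 (1.22) and Cbx3 (0.97).

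Limma on log2(RPKM + 0.1) and on log2(RPKM + 1) turned Atf7ip (-0.06 and -0.06), Cbx1 (-0.03 and -0.02) and Cbx5 (-0.05 and -0.04) in cKit dKO, Atf7ip (0.17 and 0.16) and Cbx3 (0.09 and 0.07) in cKit control against Thy1 control, Ehmt1 (-0.03 and -0.02) in cKit dKO against Thy1 dKO, and Ehmt2 (-0.26 and -0.26) and Atf7ip (-0.08 and -0.08) in the difference. Limma on log2(RPKM + 1) also turned Setdb1 in Thy1 dKO (-0.0004). Library totals turned Ehmt1 in cKit dKO against Thy1 dKO (-0.08) and Ehmt2 in the difference (-0.07). With the 4 libraries compared, Setdb1 in Thy1 dKO was -0.002, Suv39h2 in cKit control against Thy1 control -0.01 and Trim28 in cKit dKO against Thy1 dKO 0.01, and with the replicate block Suv39h2 in cKit control against Thy1 control was -0.004.

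With 1 library left out, log2 fold changes that turned sign ranged in Thy1 dKO from -0.08 to 0.12 for Setdb1, -0.09 to 0.03 for Ehmt1, -0.01 to 0.09 for Atf7ip, -0.22 to 0.09 for Cbx1, -0.35 to 0.01 for Cbx3 and -0.12 to 0.02 for Cbx5. In cKit control against Thy1 control they ranged from -0.19 to 0.17 for Suv39h2, -0.21 to 0.06 for Atf7ip, -0.03 to 0.53 for Cbx1 and -0.33 to 0.03 for Cbx3, and in cKit dKO against Thy1 dKO from -0.08 to 0.02 for Trim28.

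Over all genes tested, deviations of same-numbered samples correlated at -0.0453 in Thy1 and 0.0163 in cKit. These values showed no pairing by replicate number, but cannot exclude a pairing or shared batch that moved some genes. With the replicate block, 4 of the 10 genes were called in cKit dKO, without Trim28 and Cbx3, and 1 in Thy1 dKO. Of all 14907 genes, that fit called 1869 higher and 2119 lower in cKit dKO, and 55 higher and 30 lower in Thy1 dKO. With 2 libraries per group, the fit pools the spread over all groups, and a library left alone in its group is assumed to vary like the others. Of the members, Cbx3 has the lowest counts, from 100 to 271 per library, which limits its precision.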
